A study of Mus musculus with 7 samples.

Results

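The cytosolic ribosomal protein genes encode the proteins of the ribosomes that translate every nuclear-encoded mRNA. They were taken as the GENCODE M21 protein-coding genes whose symbol is Rpl, Rps or Rplp with a number, plus Rpsa, without the Rps6k kinases. This gave 83 of 21951 protein-coding genes, 32 of the small and 51 of the large subunit. Chromatin accessibility had been measured by ATAC-seq, in which a transposase inserts adapters into exposed DNA, in whole liver tissue of C57BL/6N mice with no genetic or drug treatment. The mice were male according to the study's methods. The 3 young samples came from mice aged 3 months and the 4 aged samples from mice aged 18 months. According to the deposited design, the aged samples came from 3 animals, since 2 lobules of 1 liver were used as separate samples. The labels do not say which these were, and the paper describes the aged samples as 4 biological replicates. Values are counts in 55680 accessible regions, which summed to between 4474652 and 25461110 per sample.

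Ribosomal protein genes are among the most transcribed genes of a cell, and their products are needed in roughly equal numbers. Their mRNAs typically begin with a C and a run of pyrimidines, the 5′ terminal oligopyrimidine (TOP) motif, through which mTOR signalling and LARP1 set their translation. Their promoters typically lack a strict TATA box and lie in CpG-rich DNA with sites for ETS family factors such as GABP, for SP1 and for YY1. Many of them also carry snoRNA genes in their introns. In liver, a tissue that secretes large amounts of plasma protein, ribosomes are abundant.

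The TOP start is shown first because it is the feature for which these genes are best known. The bases run from 60 before to 20 after the transcription start site (TSS), which is the start of the lowest-numbered curated RefSeq mRNA, on GRCm38, and the capitals mark the C at the TSS with the pyrimidines that follow it.
Rps6 (chr4:86857348-86857427, minus strand): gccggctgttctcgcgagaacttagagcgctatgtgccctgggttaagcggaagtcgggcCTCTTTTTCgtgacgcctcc
Rps27 (chr3:90213629-90213708, minus strand): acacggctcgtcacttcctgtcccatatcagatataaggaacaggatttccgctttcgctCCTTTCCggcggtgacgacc
Rplp2 (chr7:141447591-141447670, plus strand): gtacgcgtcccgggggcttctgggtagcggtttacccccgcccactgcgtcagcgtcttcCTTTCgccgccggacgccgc
Rps21 (chr2:180257319-180257398, plus strand): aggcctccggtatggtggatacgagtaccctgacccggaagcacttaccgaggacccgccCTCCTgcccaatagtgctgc
Rpl38 (chr11:114668520-114668599, plus strand): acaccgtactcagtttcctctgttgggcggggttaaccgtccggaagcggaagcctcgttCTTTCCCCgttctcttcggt

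A C at the TSS with at least 4 further pyrimidines was found in 14 of the 80 ribosomal protein genes with an accessible promoter (17.5%) and in 267 of 12508 other coding genes with one (2.14%). These are the genes with a curated RefSeq start, which 449 of the 12957 other coding genes with an accessible promoter lacked under the same symbol and place. The 14 genes were Rpl14, Rpl15, Rpl28, Rpl30, Rpl32, Rpl35, Rpl38, Rplp2, Rps6, Rps10, Rps15a, Rps18, Rps21 and Rps27. When such a run was allowed to start within 5 bases of the TSS on either side, the shares were 42.5% and 19.6%. These shares are descriptions of annotated starts, and a start placed a few bases away from the true one loses the motif.

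The window from 250 bases before to 50 bases after the TSS was then searched on both strands for 6 short motifs. CCGGAA, a string found in ETS sites, was present in 44 of 80 ribosomal protein promoters (55.0%) and in 27.9% of the others. Only this whole string was searched, and shorter forms such as GGAA were not counted. AAGATGGC, a YY1 motif, was found in 8.75% and 4.57%, and TATAAA, the TATA box, in 12.5% and 7.03%. GGGCGG, bound by SP1, stood in 61.3% of ribosomal protein promoters and 65.5% of the others. For CCAAT, bound by NF-Y, the shares were 31.3% and 38.5%, and for CACGTG, bound by Myc and USF factors, 8.75% and 10.2%. None of these letter strings contains another. The median number of CG dinucleotides in the window was 21 in both sets. Relative to the number expected from the C and G content, the median was 0.87 in ribosomal protein promoters and 0.77 in the others. Their median GC content was 57.2% and 61.3%.

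**Figure D1:**
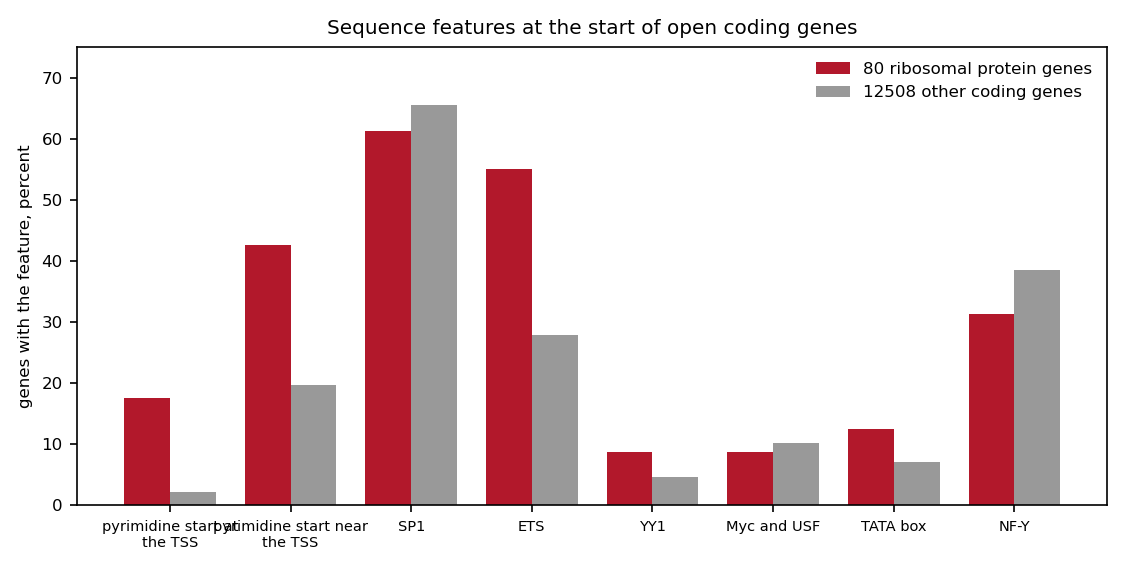
Percent of genes with each sequence feature (vertical axis) among 80 ribosomal protein genes (red) and 12508 other coding genes with an accessible promoter (grey). The pyrimidine start at the TSS (17.5% against 2.14%) and the ETS string CCGGAA (55.0% against 27.9%) are more frequent in the ribosomal protein genes, while SP1 motifs are about as frequent in both.

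A region overlapped the TSS ± 200 bp of 80 of the 83 genes. The exceptions were Rpl3l, Rpl10l and Rpl39l, the paralogs of Rpl3, Rpl10 and Rpl39 that are known from muscle (Rpl3l) and testis (Rpl10l and Rpl39l). The nearest region lay 3108 bp from a TSS of Rpl3l, 22328 bp from one of Rpl39l and 214956 bp from that of Rpl10l. The regions were those with a peak in at least 2 samples, so a weaker signal at these starts is not counted here. The starts of each pair are set side by side because the parent has such a region and the paralog has none, and the capitals mark CG dinucleotides.
Rpl3 (chr15:80083387-80083466, minus strand): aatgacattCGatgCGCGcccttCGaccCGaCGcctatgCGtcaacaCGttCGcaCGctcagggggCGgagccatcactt
Rpl3l (chr17:24732625-24732704, plus strand): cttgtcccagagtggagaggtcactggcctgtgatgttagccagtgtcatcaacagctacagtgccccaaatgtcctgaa
Rpl10 (chrX:74270756-74270835, plus strand): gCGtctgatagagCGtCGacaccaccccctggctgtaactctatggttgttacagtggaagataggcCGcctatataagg
Rpl10l (chr12:66284382-66284461, minus strand): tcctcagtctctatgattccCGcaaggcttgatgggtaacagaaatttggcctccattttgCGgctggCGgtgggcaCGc
Rpl39 (chrX:37085203-37085282, minus strand): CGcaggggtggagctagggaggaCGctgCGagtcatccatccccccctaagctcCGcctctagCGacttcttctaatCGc
Rpl39l (chr16:10170168-10170247, plus strand): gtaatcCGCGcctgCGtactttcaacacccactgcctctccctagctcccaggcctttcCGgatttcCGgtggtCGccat

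Rpl3l held 3 CG dinucleotides in the 300-base window against 21 in Rpl3. Rpl10l held 13 against 17 in Rpl10, and Rpl39l and Rpl39 held 17 each. The CG content of the window therefore was lower in the copy without a region for Rpl3 and the same for Rpl39. For Rpl3l, the RefSeq start used for the letters was that of a single annotated mRNA, and GENCODE gives 3 start sites. That RefSeq start, at position 24732685, lies inside the GENCODE gene, which begins at 24727820. The distance to the nearest region was taken from that beginning, so the letters and CG count of Rpl3l describe another site.

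At the other 80 genes the strongest region at any annotated start was used. It was 799 to 4901 bp wide with a median of 1288.5 bp, and covered a median of 23.5% of the gene. The widest belonged to Rpl18. The RefSeq TSS lay inside the region used at 78 genes and outside it at 2, Rps14 and Rpl18, whose strongest region was at another GENCODE start. No region was shared between ribosomal protein genes, but 17 also overlapped the promoter of another coding gene. Counts in these regions were 48 to 6732 per sample, so none was near the limit of detection. No region had a copy over at least 80% of its length elsewhere in the genome, and the longest partial copy, at Rpl37a, covered 45.9%.

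Levels were compared as library-scaled counts (CPM) per kb of region, averaged over the 7 samples. They ran from 9.16 at Rpl4 to 77.0 at Rps19, with a median of 27.3, against 25.04 at other accessible coding promoters, and 43 of the 80 were above that value. The 5 highest were Rps19 with 77.0 CPM per kb, Rps29 with 65.7, Rpl27 with 58.2, Rps21 with 56.7 and Rpl7 with 54.2. Rps19 is a small-subunit protein whose loss causes Diamond-Blackfan anaemia. The median was 29.6 CPM per kb in the small and 24.7 in the large subunit. When all accessible coding promoters were ranked by mean log2 CPM, the genes stood in deciles 2 to 10, with a median at decile 5. Accessible ribosomal protein promoters were thus spread around the middle of coding promoters. The regions held 0.327% to 0.360% of all counts in each sample.

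The comparison of age asked whether these promoters open or close in aged liver, where the study examined promoter accessibility. At an adjusted p under 0.05 (edgeR's quasi-likelihood test, Benjamini-Hochberg over all regions), 1 of the 80 promoters was more accessible in aged liver and 0 were less accessible. Among all 11728 promoter regions of coding genes, 4.90% were more and 1.58% less accessible, and over all regions 2.44% and 3.30%. The 1 promoter was that of Rps23, a protein of the decoding centre. At an unadjusted p under 0.05, 16 promoters were higher and 4 lower, among them Rpl4, Rpl26 and Rpl38, beside 26.3% and 8.08% of coding promoter regions. DESeq2 called 3 higher (Rps19, Rps23 and Rpl27) and 0 lower, where it called 11.5% and 1.70% of coding promoter regions. The p-values measure the spread between samples, 2 of which share an animal. Fewer cells with an open promoter and less opening per cell cannot be told apart in whole tissue.

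The log2 fold change of the 80 promoters, aged against young, ran from -0.49 to 0.47 with a median of 0.058. It was above 0 at 48 of them. The median was 0.13 over coding promoters and -0.035 over all regions. The sign of the median for the ribosomal protein promoters depended on the scaling. Library totals in place of TMM gave -0.061 and moved the median of all regions from -0.035 to -0.15. They gave 0 calls higher and 2 lower (Rpl26 and Rpl38), beside 1.64% and 3.15% of coding promoter regions. Offsets fitted on mean abundance gave a median of -0.090 and 0 calls, beside 0.119% higher and 0.588% lower. Offsets fitted on GC content gave a median of 0.14 with 11 calls higher and 0 lower, beside 20.6% and 1.94%. The standard errors were 0.10 to 0.18. The 95% intervals of all 80 fold changes lay between -0.84 and 0.76, so that each excluded a doubling or a halving, which is 1 on the log2 scale. For 51 of them the interval lay within 0.5 on either side of 0.

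**Figure D2:**
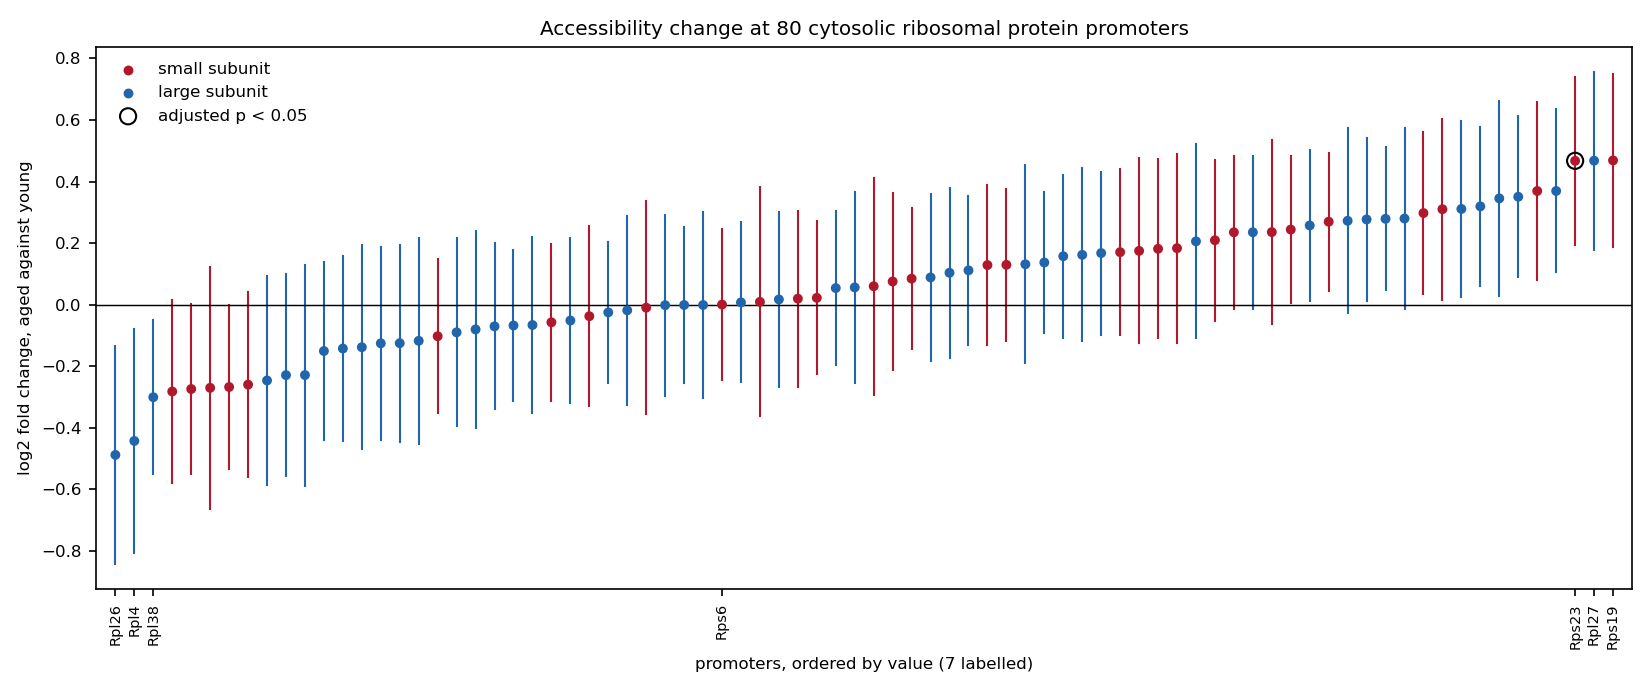
Log2 fold change of accessibility, aged against young liver (vertical axis), at each of 80 ribosomal protein promoters, ordered by value with 7 labelled, with 95% intervals from edgeR. Small-subunit genes are red and large-subunit genes blue, and a ring marks Rps23, the 1 promoter with an adjusted p under 0.05. The values run from -0.49 at Rpl26 to 0.47 at Rps19.

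Every aged sample was above every young one at 10 promoters (12.5%, beside 23.5% of coding promoter regions). They included Rpl7, Rpl15, Rpl27, Rpl31, Rpl39, Rps19, Rps21, Rps23 and Rps27l. Every aged sample was below every young one at 4 (5%, beside 8.15%), among them Rpl4, Rpl38 and Rps3a1. At the other 66 the ages overlapped.

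The promoters with the 3 highest and the 3 lowest fold changes are shown next, so that their starts can be compared. The window is again from 60 bases before to 20 bases after the TSS, and the capitals mark the ETS string CCGGAA on either strand.
Rps19 (chr7:24884616-24884695, plus strand): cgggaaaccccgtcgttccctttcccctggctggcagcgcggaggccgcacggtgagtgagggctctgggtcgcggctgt
Rpl27 (chr11:101442185-101442264, plus strand): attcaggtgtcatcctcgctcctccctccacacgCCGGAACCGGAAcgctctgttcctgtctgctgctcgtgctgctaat
Rps23 (chr13:90923062-90923141, plus strand): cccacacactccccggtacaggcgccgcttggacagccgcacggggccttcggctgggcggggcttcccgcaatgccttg
Rpl26 (chr11:68901506-68901585, plus strand): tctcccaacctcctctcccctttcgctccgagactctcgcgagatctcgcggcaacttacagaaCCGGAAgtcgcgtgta
Rpl4 (chr9:64173327-64173406, plus strand): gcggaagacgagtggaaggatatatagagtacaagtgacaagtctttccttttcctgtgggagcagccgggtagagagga
Rpl38 (chr11:114668520-114668599, plus strand): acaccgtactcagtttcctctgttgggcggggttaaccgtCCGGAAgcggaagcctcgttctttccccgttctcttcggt

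Rpl27 carried 2 copies in tandem just before the TSS, and Rpl26 and Rpl38 carried 1. Rps19, Rps23 and Rpl4 had no CCGGAA in the 300-base window, although the printed Rpl4 start holds the shorter GGAA. The string CCGGAA therefore stood on both sides of the range. Over the 80 genes the median log2 fold change was 0.14 in the 44 with CCGGAA and -0.0053 in the 36 without it. The promoters with CCGGAA also had the higher level, a median of 29.3 against 24.2 CPM per kb, and the part of that difference was not tested. With abundance offsets the medians were -0.083 and -0.12. For the TOP start at the TSS the medians were 0.055 in the 14 genes with it and 0.068 in the 66 without. With the run allowed within 5 bases they were 0.12 in 34 genes and 0.0033 in 46, with levels of 29.9 and 23.9 CPM per kb. With abundance offsets the medians were -0.098 and -0.090 for the start at the TSS and -0.087 and -0.12 for the wider search.

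In the small subunit, 23 of 32 values were above 0, their median was 0.11, and 1 was called (4.90% of coding promoter regions were). With abundance offsets the median was -0.061 and 0 were called, and DESeq2 called 2. The accessibility of Rps23 (chr13:90922474-90923683) was 5.40, 5.27 and 5.08 log2 CPM in the young samples and 5.85, 5.46, 5.69 and 5.84 in the aged samples. All aged samples were higher, although aged replicate 2 exceeded young replicate 1 by little. Young liver had a mean of 37.98 ± 4.12 CPM (SD, n = 3), and the mean of aged liver was 52.5 ± 6.28 CPM (SD, n = 4). The log2 fold change was 0.47 ± 0.13 (SE, edgeR adjusted p = 0.0470). The call was lost when any young sample or aged replicate 1, 3 or 4 was left out and was held without aged replicate 2, with log2 fold changes of 0.41 to 0.55. It was lost under 14 of 23 other choices of samples, counts or fit, in all of which the fold change stayed above 0, and also at an adjusted p of 0.01 in the reported fit. The 14 include summing aged replicates 1 and 3, 1 and 4, 2 and 3, or 3 and 4, where 0 promoters were called. Any of these pairs may be the 2 samples of 1 animal.

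Rps19 (chr7:24883906-24885083), which acts in 18S rRNA maturation, had 6.40, 6.33 and 5.86 log2 CPM in young and 6.71, 6.56, 6.71 and 6.77 in aged liver. The ages did not overlap, and young replicate 3 was well below the other samples. Its log2 fold change of 0.47 ± 0.13 (SE) had an edgeR adjusted p of 0.0513. Rps3, which lines the mRNA entry channel and also acts in DNA repair, had 5.17, 4.999 and 4.90 log2 CPM in young samples and 5.38, 5.54, 5.56 and 5.09 in aged samples. Aged replicate 4 lay among the young samples, and the log2 fold change of 0.37 ± 0.14 (SE) had an edgeR adjusted p of 0.113.

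Rps21 and Rps29, small proteins of the 40S subunit, were among the strongest promoters. The log2 CPM of Rps21 was 6.73, 6.64 and 6.44 in young and 6.91, 6.74, 6.80 and 6.95 in aged liver. Aged replicate 2 cleared young replicate 1 by less than the spread within either age, and the log2 fold change was 0.24 ± 0.11 (SE), which turned to -0.087 with abundance offsets. Rps29 had a log2 fold change of 0.24 ± 0.12 (SE), with aged replicate 4 among the young samples, and -0.063 with abundance offsets. Their edgeR adjusted p-values were 0.194 and 0.229.

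Rps6, the target of the S6 kinases downstream of mTOR, was as close to no change as any promoter. It measured 5.10, 5.12 and 5.15 log2 CPM in young samples and 5.05, 5.23, 5.17 and 5.05 in aged samples. The aged samples lay on both sides of the young ones, and the 95% interval of the log2 fold change was -0.24 to 0.24. Rps14, the gene haploinsufficient in 5q- syndrome, had a log2 fold change of 0.08 ± 0.11 (SE) at its strongest region, which overlaps the promoter of Ndst1 and lies 25747 bp from the RefSeq TSS. The weaker region at that TSS had a value of the other sign, -0.15 ± 0.13 (SE), and neither was called. Rpsa, the 40S protein also known as the laminin receptor, had 0.06 ± 0.16 (SE). Rps27a, which is made as a fusion with ubiquitin, had 0.21 ± 0.12 (SE), and 3 of its 4 aged samples were above every young sample.

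At the low end of the small subunit stood Rps3a1, a 40S protein gene that carries snoRNAs in its introns. Rps3a1 had 5.24, 5.06 and 5.06 log2 CPM in young and 5.04, 4.71, 4.99 and 4.58 in aged liver. Every aged sample was below every young one. The log2 fold change of -0.28 ± 0.14 (SE) did not pass the test, with an edgeR adjusted p of 0.227.

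**Figure D3:**
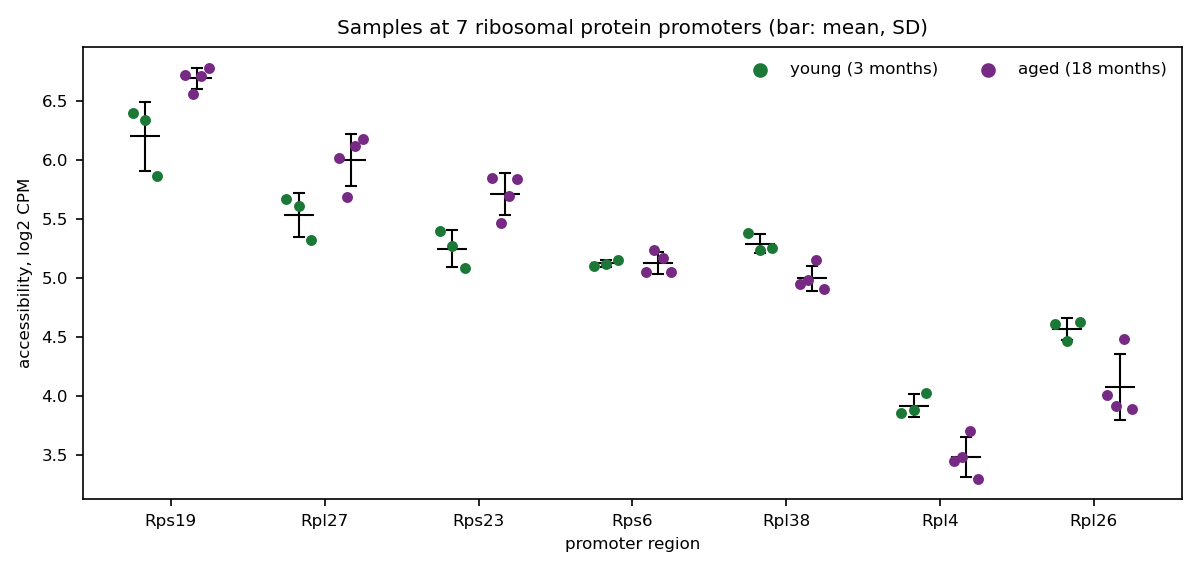
Accessibility of 7 ribosomal protein promoters in log2 CPM (vertical axis) for each young (green, n = 3) and aged (purple, n = 4) sample, with mean and SD as black bars. The ages do not overlap at Rps19, Rpl27, Rps23, Rpl38 and Rpl4, while at Rps6 the aged samples lie on both sides of the young ones and at Rpl26 aged replicate 3 reaches the young samples.

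In the large subunit, 25 of the 48 accessible promoters were above 0, the median log2 fold change was 0.012, and 0 were called. The median was -0.11 with abundance offsets, and DESeq2 called 1, Rpl27. Rpl27 (chr11:101441984-101442955), mutated in some cases of Diamond-Blackfan anaemia, had 5.67, 5.61 and 5.32 log2 CPM in young and 6.02, 5.68, 6.11 and 6.18 in aged liver. Aged replicate 2 was level with the highest young sample and the other aged samples were clearly above. The log2 fold change was 0.47 ± 0.14 (SE, edgeR adjusted p = 0.0559).

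The lowest fold change was that of Rpl26 (chr11:68900933-68902133), which binds the 5′ region of p53 mRNA. It had 4.61, 4.46 and 4.63 log2 CPM in young and 4.01, 3.92, 4.48 and 3.89 in aged liver. Aged replicate 3 reached the lowest young sample and the other 3 were well below. The log2 fold change of -0.49 ± 0.17 (SE) had an edgeR adjusted p of 0.0901.

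Rpl4, with Rpl17 and Rpl39 a wall of the peptide exit tunnel, had the weakest promoter for its width. It had 3.85, 3.88 and 4.03 log2 CPM in young and 3.45, 3.48, 3.70 and 3.30 in aged liver, without overlap. The log2 fold change was -0.44 ± 0.17 (SE, edgeR adjusted p = 0.127), and the region also covers the promoter of Zwilch. Rpl39, at the narrow end of the tunnel, had a value on the other side of 0. Its 4.66, 4.42 and 4.32 log2 CPM in young and 4.83, 4.79, 4.72 and 4.80 in aged samples did not overlap, with a log2 fold change of 0.31 ± 0.13 (SE, edgeR adjusted p = 0.168). For Rpl17 the value was -0.12 ± 0.15 (SE). Of these 3 genes 0 passed the test.

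Rpl38, needed for translation of Hox mRNAs in the embryo, had 5.38, 5.24 and 5.25 log2 CPM in young and 4.95, 4.98, 5.15 and 4.91 in aged liver. The aged samples were all lower, with a log2 fold change of -0.30 ± 0.12 (SE, edgeR adjusted p = 0.130). Rpl7, a protein of the 60S subunit, had one of the strongest promoters and a log2 fold change of 0.28 ± 0.11 (SE, edgeR adjusted p = 0.131), which turned to -0.080 with abundance offsets. Its region also overlaps the promoter of Rdh10.

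In the acidic stalk, which recruits translation GTPases, 2 of 4 promoters had a log2 fold change above 0 and 0 were called, with a median of 0.0024, or -0.13 with abundance offsets. Rplp0, the stalk base, had 5.33, 5.18 and 5.09 log2 CPM in young and 5.63, 5.59, 5.30 and 5.65 in aged samples. Aged replicate 3 fell just below young replicate 1, and the log2 fold change was 0.35 ± 0.12 (SE, edgeR adjusted p = 0.0969). Its partners in the stalk had log2 fold changes of -0.05 ± 0.13 (SE) at Rplp1 and 0.06 ± 0.14 (SE) at Rplp2. Rpl12 had -0.14 ± 0.15 (SE).

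Among the 5 genes whose proteins act on p53 or on its ligase Mdm2, 1 value was above 0, beside 66.7% of coding genes with an accessible promoter. Their median decile of strength was 4. The median log2 fold change was -0.090, or -0.18 with abundance offsets, and 0 were called. Rpl11 and Rpl5, which with 5S RNA bind Mdm2, had -0.0010 ± 0.12 (SE) and -0.15 ± 0.14 (SE). Rpl23 had -0.09 ± 0.14 (SE) and Rps7 0.17 ± 0.14 (SE). Of the 19 genes linked to Diamond-Blackfan anaemia, 11 were above 0, beside 66.7% of coding genes with an accessible promoter, with a median of 0.13, and 0 were called. DESeq2 called 2 of them, Rps19 and Rpl27, and the median was -0.019 with abundance offsets.

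Further genes with known roles, and the accessible paralogs, had 0 calls. Rpl3, at the peptidyl transferase centre, had a log2 fold change of -0.14 ± 0.14 (SE), and Rpl10, which joins late in 60S maturation, 0.35 ± 0.15 (SE, edgeR adjusted p = 0.167). Rpl13a, which also silences inflammatory mRNAs after its release, had 0.32 ± 0.12 (SE, edgeR adjusted p = 0.122). Rpl22 had 0.09 ± 0.13 (SE), or -0.083 with abundance offsets, and its paralog Rpl22l1 0.28 ± 0.14 (SE). The accessible paralogs Rpl7l1 and Rps27l, the latter a p53 target, had 0.16 ± 0.13 (SE) and 0.27 ± 0.10 (SE). With abundance offsets Rpl7l1 had -0.0044. At Rps27l every aged sample was above every young one, with an edgeR adjusted p of 0.130. Further cytosolic ribosomal protein genes, which the symbol rule does not reach, had log2 fold changes of -0.15 ± 0.12 (SE) at Fau, 0.13 ± 0.13 (SE) at Rack1 and 0.11 ± 0.11 (SE) at Rpl36al, and 0 of these 3 were called.

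The fold change ran with the strength of the promoter region. Over other coding genes, the median log2 fold change was -0.44 in the weakest decile of mean log2 CPM and 0.35 in the strongest, and the share called higher was 0.153% and 16.5%. Of the 41 ribosomal protein promoters in deciles 2 to 5, 16 were above 0. Among other coding genes of deciles 1 to 5 the share was 40.5%. The 2 are not like for like, because decile 1, with its median of -0.44, held 0 ribosomal protein promoters. Of the 39 in deciles 6 to 10, 32 were above 0, beside 93.0% of other coding genes. Spearman's rho between mean log2 CPM and log2 fold change was 0.58 across the 80 genes and 0.70 across 12957 other coding genes, which share the same 7 libraries. Each ribosomal protein promoter was therefore set against the other coding promoters of its decile. The median difference in log2 fold change was -0.077, and 53 of the 80 lay below the median of their decile. The difference was negative under every alternative run, from -0.11 to -0.057. Some of these could hardly have changed it. A new scaling of the libraries shifts all promoters alike, and a new threshold leaves the fold changes as they were.

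**Figure D4:**
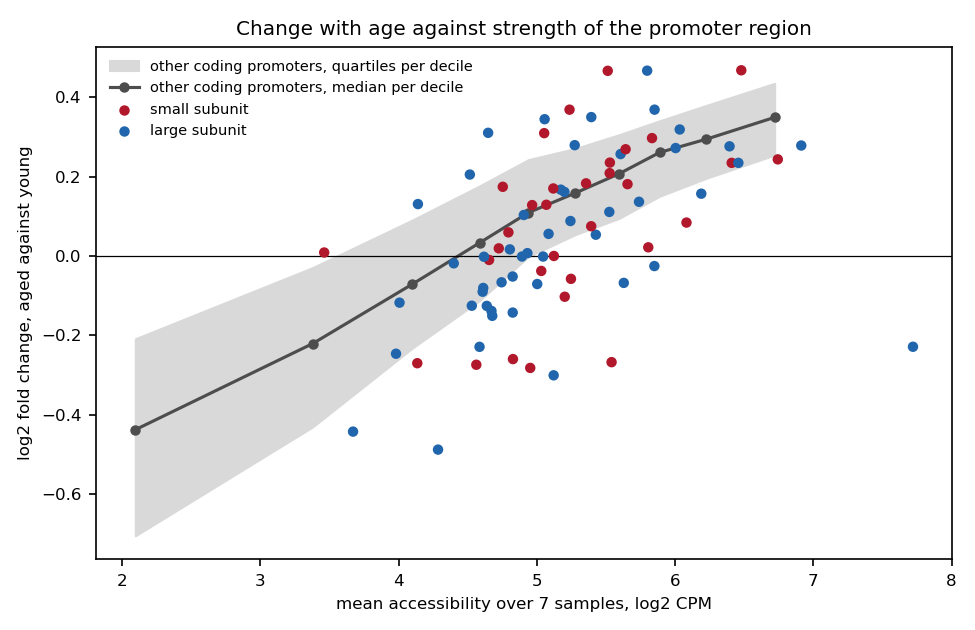
Log2 fold change, aged against young (vertical axis), against mean accessibility in log2 CPM (horizontal axis) for 80 ribosomal protein promoters (red, small subunit; blue, large subunit). The line and band give the median and quartiles of other coding promoters per decile of strength, and 53 of the 80 points lie below the median of their own decile.

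Sample by sample, the mean of the 80 promoters was 5.24, 5.14 and 5.11 log2 CPM in young and 5.28, 5.14, 5.28 and 5.19 in aged liver, and the ages overlapped. After subtraction of the mean of all other coding promoters, it was 0.36, 0.28 and 0.32 in young and 0.36, 0.31, 0.36 and 0.24 in aged liver. The ages overlapped there too, with a mean of 0.32 in each. After subtraction of the mean of other coding promoters in the same deciles instead, it was 0.11, 0.03 and 0.03 in young and 0.02, -0.02, 0.01 and -0.06 in aged liver. All aged samples were then below all young samples. The means were 0.06 ± 0.04 (SD, n = 3) and -0.01 ± 0.04 (SD, n = 4) log2 CPM, given as a description because the genes were chosen with earlier results known.

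**Figure D5:**
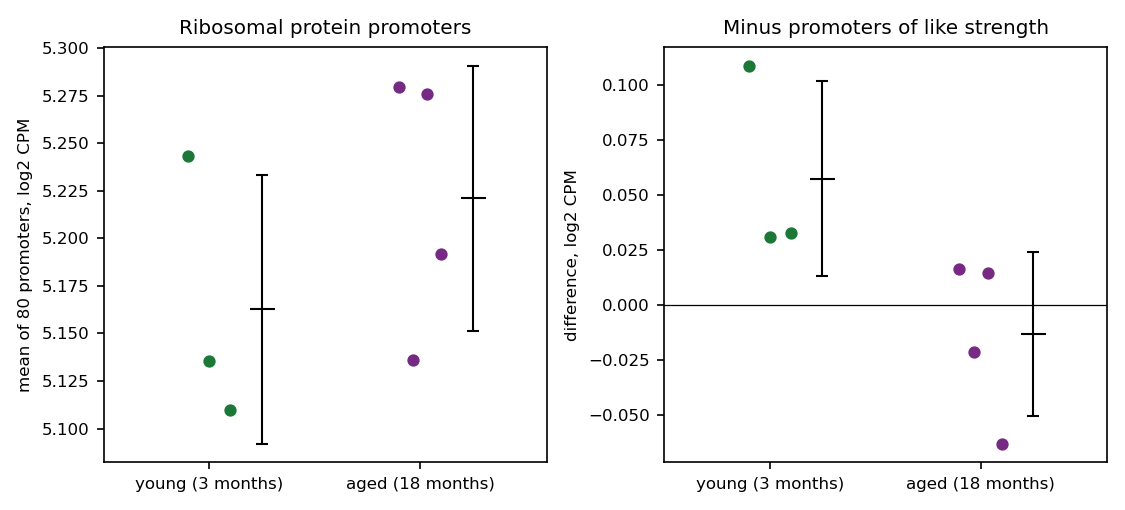
Mean accessibility of the 80 ribosomal protein promoters in log2 CPM (left) and its difference from other coding promoters of the same strength deciles (right), for each young (green, n = 3) and aged (purple, n = 4) sample, with mean and SD as black bars. The ages overlap on the left, and on the right the aged samples, at -0.06 to 0.02, lie below the young samples, at 0.03 to 0.11.

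Genes that make and control ribosomes were read in the same fit. Beside their counts stand the shares of coding promoter regions, which were 4.90% higher and 1.58% lower in that fit, 11.5% and 1.70% with DESeq2, and 0.119% and 0.588% with abundance offsets. Of 20 genes for RNA polymerase I and its factors, which transcribe rRNA, 0 were called and the median log2 fold change was -0.0039. With abundance offsets 1 of them was called lower and the median was -0.076. Of 49 ribosome assembly genes, 1 was called higher and 0 lower, with a median of 0.10. This was Nhp2, a protein of H/ACA snoRNPs, at 0.50 ± 0.13 (SE, edgeR adjusted p = 0.0437). DESeq2 called 3 higher and 1 lower, and abundance offsets 0, with a median of -0.012. Of 16 genes of TOP mRNA and growth control, which include Mtor, Larp1 and Gabpa, 0 were called and 13 were above 0, with a median of 0.30 and a median decile of 9. DESeq2 called 3 of them higher, and the median was 0.023 with abundance offsets. Among 78 mitochondrial ribosomal protein genes, Mrpl50 at 0.40 ± 0.11 (SE) and Mrpl51 at 0.46 ± 0.11 (SE) were called higher and Mrpl53 at -0.53 ± 0.12 (SE) lower, with a median of 0.081. DESeq2 called 9 of these 78 higher and 1 lower, the former at the rate of coding promoter regions, and abundance offsets 0 higher and 2 lower, with a median of -0.027.

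Of 10 hepatocyte marker genes, 10 had an accessible promoter, and 1, Apoa1, was called higher. Their summed level was 696 to 804 CPM in young and 863 to 1008 CPM in aged samples, of which Apoa1 alone held 187 ± 15.3 (SD, n = 3) and 271 ± 38.9 CPM (SD, n = 4). The median log2 fold change of the 10 was 0.30, with 3 called higher by DESeq2, and 0.020 with 0 called with abundance offsets. In the reported fit 8 of the 10 were above 0. Serpina1e at -0.63 ± 0.32 (SE) and Tat at -0.024 ± 0.16 (SE) were below it. Regions were present at 1 of 8 Kupffer cell and macrophage, 0 of 8 lymphocyte, 4 of 6 endothelial, 3 of 6 stellate cell and 3 of 5 cholangiocyte markers, with 0 called in each list. The summed level of the stellate markers was 26.6 to 29.1 CPM in young and 16.1 to 23.5 CPM in aged samples. Most of it was Reln, whose mean ± SD was 18.7 ± 2.10 CPM over the 3 young and 11.7 ± 2.67 CPM over the 4 aged samples (edgeR adjusted p = 0.0586), while Lrat had 3.46 and 2.93 CPM and Col1a1 5.34 and 4.10 CPM. The summed levels of the macrophage, endothelial and cholangiocyte markers overlapped between ages. Most of the cholangiocyte sum was Sox9, with means of 42.7 CPM in young and 40.7 CPM in aged samples. Epcam had 3.89 and 2.22 CPM and Spp1 2.42 and 2.67 CPM. The part of cell composition in the values of the ribosomal protein promoters was not tested.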

How the data were processed

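The authors trimmed the reads (cutadapt 1.13), aligned them to GRCm38 (Bowtie2 2.4.1), called peaks for each sample (MACS2 2.2.7) and deposited raw counts per consensus region (featureCounts), without normalization, for 7 samples. PCR duplicates and mitochondrial reads had been removed by the authors. All columns were assigned to a sample. Regions were joined to TSS ± 200 bp of GENCODE M21 transcripts, and the region with the highest mean log2 CPM was kept for each gene. Counts were tested with edgeR 4.0.16 in R 4.3.3 (TMM, quasi-likelihood, age as the only factor, Benjamini-Hochberg over all regions, no filter). Intervals are 95% from that fit, and log2 CPM used a prior count of 2. Sequences came from the GRCm38 RefSeq genome with curated RefSeq starts, which matched all 80 genes. Copies were sought with minimap2 2.31. The fit was tested on simulated counts with changes far larger than those of the ribosomal protein promoters. That check does not speak to changes of the size reported here. Pairs of samples of the same age differed by more than sampling noise, so no library was counted as a copy of another. This check cannot tell which samples share an animal.

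Genes were named by a rule: an adjusted p under 0.05, the 5 highest and 5 lowest fold changes, the 5 highest CPM per kb, no region, or a set list of roles. Some genes and sequences that the rule selects are not reported here. Genes outside it were named in counts after their values were seen. The members and lists were chosen with earlier results of these data known. Alternatives were DESeq2 1.42.0, total counts, offsets on abundance or GC content (loess, span 0.3), a minimum of 10 counts, a replicate block, leaving out samples, summing pairs of aged samples, an adjusted p of 0.01, a window of 1000 bp, 1 TSS per gene and summed regions. The totals per sample limit precision, and intervals cover the spread between samples only. Expression data of the study were not analysed here.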

Additional observations from a re-analysis of the deposited data

Results flagged for a closer look

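In the aged group 1 of 33 sets of values had a sample far from the others. At Rpl22l1, the paralog of Rpl22, aged replicate 4 had 5.16 log2 CPM while the other 3 aged samples had 5.44 to 5.49, and it lay among the young samples. Such a gap appears by chance in about 1 in 20 groups.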

How the results depend on the processing

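The number of ribosomal protein promoters called higher was 3 with DESeq2, 11 with GC offsets, 0 with abundance offsets or total counts, 0 with at least 10 counts in every sample (beside 1.42% of coding promoter regions), 2 with regions of a gene summed (4.83% of coding genes) and 0 at an adjusted p of 0.01 (0.0597%). With pairs of aged samples summed it was 0 for 4 pairs (0.614% to 3.04%), 2 for aged 1 and 2 (3.85%) and 3 for aged 2 and 4 (8.80%). Leaving out 1 sample gave 0 to 2, beside 0.102% to 6.37% of coding promoter regions. The number called lower was 0 in every alternative except total counts, where it was 2 (Rpl26 and Rpl38). The median log2 fold change was 0.14 with GC offsets, -0.090 with abundance offsets, -0.061 with total counts and 0.018 to 0.11 without 1 sample. The median difference from promoters of like strength kept its sign in every alternative, although a change of scaling or threshold alone could hardly move it. The replicate numbers did not pair the samples (correlations of same-numbered samples -0.12, 0.06 and 0.03), and with the replicate block 0 promoters were called higher, or 9 with the replicate block and GC offsets, with a median of 0.17. Of coding promoter regions, 3.22% and 17.7% were called higher in these fits.

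Some values changed sign, among them those of Rpl7, Rps21 and Rps29, which were 0.28, 0.24 and 0.24 in the reported fit. With abundance offsets the log2 fold change was -0.083 at Rpl22, -0.080 at Rpl7, -0.0044 at Rpl7l1, -0.098 at Rplp2, -0.18 at Rps14, -0.087 at Rps21, -0.063 at Rps29, -0.15 at Rps6 and -0.059 at Rpsa. With total counts it was -0.028 at Rpl22, -0.063 at Rplp2, -0.034 at Rps14, -0.12 at Rps6 and -0.058 at Rpsa. With GC offsets it was 0.099 at Rpl11, 0.0098 at Rpl23, 0.016 at Rpl3 and 0.095 at Rplp1. With the replicate block and GC offsets it was 0.12 at Rpl11, 0.10 at Rpl3 and 0.087 at Rplp1, and with the replicate block alone 0.0022 at Rpl11 and -0.027 at Rplp2. DESeq2 gave 0.031 at Rpl11. Rps14 had -0.0088 with regions summed and -0.15 with 1 TSS per gene, which selects its other region. Rps6 had -0.019 (aged 1 and 2), -0.0027 (aged 1 and 3), -0.022 (aged 2 and 3), -0.017 (aged 2 and 4) and -0.0017 (aged 3 and 4) with pairs summed, -0.040 with at least 10 counts and -0.0077 with regions summed, and Rpl11 0.0025 and 0.0039 with aged 2 and 3 or 3 and 4 summed. Leaving out 1 sample gave -0.065 to 0.082 at Rpl11, -0.021 to 0.17 at Rplp2, -0.037 to 0.032 at Rps6 and -0.074 to 0.23 at Rpsa. Why these values moved was not tested.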

Other observations

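Beyond the protein products, 30 of the 83 genes carried 58 annotated snoRNA genes. Their median log2 fold change was 0.03, against 0.10 in the 50 accessible genes without one, and 0 of the 30 and 1 of the 50 were called higher, beside 4.90% of coding promoter regions. With abundance offsets the medians were -0.13 and -0.085 with 0 called. At 3 genes there were regions at 2 annotated starts, of which the stronger was used. At Rps14 and Rpl18 the weaker region was the one at the RefSeq TSS, and at Rps24 the stronger. At Rps24 the weaker region had a log2 fold change of -0.19 ± 0.17 (SE) beside 0.13 ± 0.11 (SE) at the stronger region, at Rps14 -0.15 ± 0.13 (SE) beside 0.08 ± 0.11 (SE), and at Rpl18 -0.18 ± 0.15 (SE) beside -0.23 ± 0.17 (SE). The difference between the regions of a gene was not tested. Rps4l, a copy that GENCODE M21 does not list as protein-coding, had a weak region with a log2 fold change of -0.59 ± 0.28 (SE, edgeR adjusted p = 0.202).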
